A study of Mus musculus with 10 samples.

Results

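Phase II conjugation enzymes attach a polar group to drugs, hormones, bile pigments and reactive lipids so that the products can leave the cell. The genes described here were taken by name from the mouse annotation: protein-coding genes of the cytosolic, mitochondrial and microsomal glutathione S-transferases, the UDP-glucuronosyltransferases (UGT) and the sulfotransferases (SULT). The name rule found 65 genes among the 55385 genes listed in each file, 22 of the GST family (classes alpha, kappa, mu, omega, pi, theta and zeta), 3 of the microsomal MGST family, 19 UGT and 21 SULT. They were followed in RNA from mouse liver endothelial cells, with 5 libraries labelled Alk1-HEC-KO (genotype KO) and 5 Control libraries (genotype WT). Liver cells other than hepatocytes were enriched on a Nycodenz gradient, and magnetic beads against CD146 then picked out the endothelial cells. The sources used here give neither strain, age and sex nor the driver of the deletion, and they do not say whether each library came from its own animal. The p-values thus reflect the spread among these libraries only, which may be technical.

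The libraries held 23489494 to 23602771 estimated counts each, and levels are given as CPM, counts scaled to library total and composition. The targeted gene Acvrl1, which encodes the receptor ALK1, went against its label. Libraries 1 to 5 labelled Alk1-HEC-KO held 239, 245, 250, 258 and 245 CPM of Acvrl1, against 124, 125, 136, 114 and 135 CPM in Control libraries 1 to 5 (log2 fold change 0.96 ± 0.05 SE, edgeR adjusted p = 1.7e-07). Counts per gene cannot tell which exons the reads covered. The first group is therefore called the knockout-labelled libraries, and each direction is that of these libraries relative to the Controls. Of the 11 liver endothelial markers 7 fell and 2 rose, beside 9.08% of all tested genes called lower and 10.6% called higher. Pecam1 and Mcam, which encodes the CD146 used for the sort, rose by 0.24 and 0.71 on the log2 scale (edgeR adjusted p = 0.013 and 1.1e-04), while markers of sinusoidal endothelium such as Stab1 and Gata4 fell by 0.50 and 0.74 (3.9e-05 and 6.9e-06). The whole list summed to 19468 to 21113 CPM in knockout-labelled libraries and 25206 to 28526 CPM in Control libraries, and none of it was at 0.

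Glutathione S-transferases join the tripeptide glutathione to electrophiles, and many of them are textbook targets of the oxidative stress factor NRF2. UGT enzymes sit in the endoplasmic reticulum and transfer glucuronic acid, for example to bilirubin. SULT enzymes transfer sulfate from the donor PAPS to phenols, steroids and bile acids. Hepatocytes are a main site of many of these enzymes in liver, and in hepatocytes many of them are known to be richer around the central vein than around the portal tract.

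Genes of all 4 families were lower in the knockout-labelled libraries, and none was called higher. Of the 65 members 37 had enough counts to be tested, and 18 of these fell (edgeR quasi-likelihood test, adjusted p under 0.05 over all 15043 genes tested). Over all tested genes 9.08% were called lower and 10.6% higher. The members that fell were 8 of 19 tested GST genes, 1 of 3 MGST genes, 8 of 10 tested UGT genes and 1 of 5 tested SULT genes. At an unadjusted p under 0.05, 2 members were higher, Mgst3 and Gstm7; DESeq2 and limma-voom called neither, and limma on log2(TPM + 1) called both. For 9 members all knockout-labelled libraries lay below all Controls, as did 7.05% of all tested genes. For 0 members they lay above all Controls, as did 8.4% of all tested genes. The median log2 fold change was -0.41 over the tested members and 0.00 over all tested genes. Gstm3 reached 10 counts in 2 of 5 knockout-labelled libraries and in 5 Controls, and Sult1b1 and Sult6b1 in 2 and in 4 Controls. These genes entered the test mainly through the Controls, so these counts describe the tested members only.

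**Figure D1:**
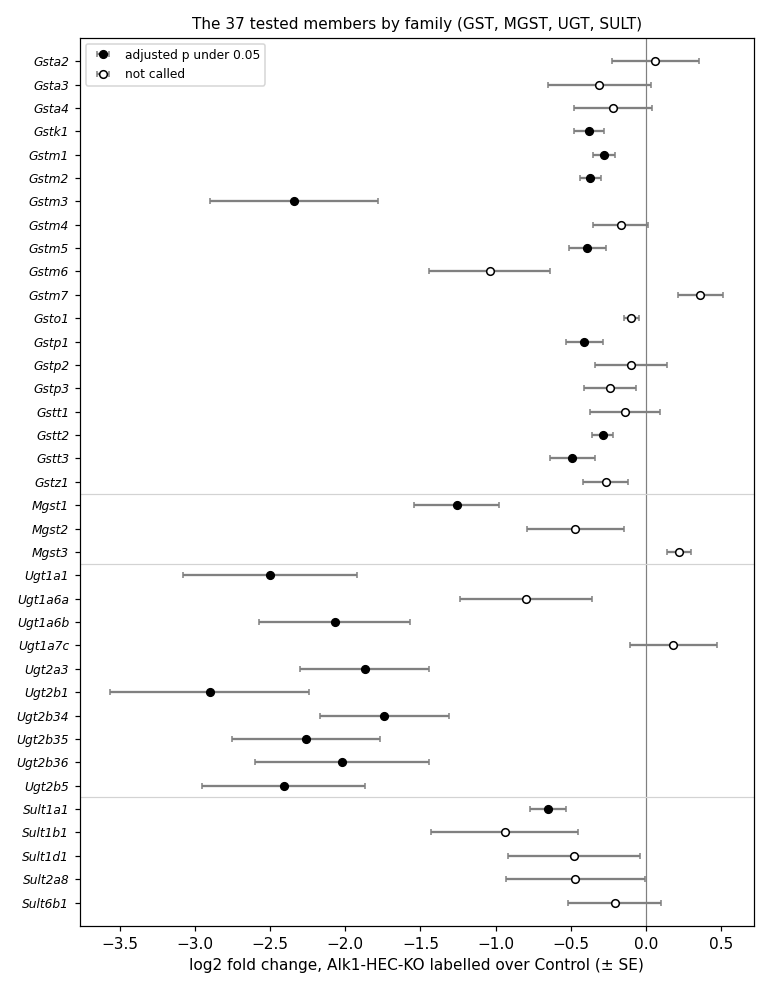
Log2 fold change (knockout-labelled libraries over Controls, ± SE) of the 37 tested members, with GST genes at the top, then MGST, UGT and SULT. Filled points passed an adjusted p of 0.05. All 18 filled points lie left of 0, most UGT genes between -1.74 and -2.90 and most GST genes within 0.5 of 0.

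The summed level fell least in the GST family and most in the UGT family; as sums over chosen genes they carry no test. GST genes summed to 814, 702, 667, 653 and 682 CPM in knockout-labelled libraries 1 to 5, against 815, 936, 886, 976 and 829 CPM in Controls 1 to 5, a log2 ratio of the means of -0.34. Library 1 of the knockout-labelled group came within 1 CPM of Control 1, and in estimated counts and in TPM the groups overlapped. The 3 MGST genes summed to 59.6, 55.3, 60.4, 64.1 and 52.9 CPM, against 88.7, 137, 88.8, 180 and 70.9 CPM in Controls (log2 ratio -0.95). The UGT genes summed to 23.8, 22.4, 14.4, 21.8 and 14.5 CPM in knockout-labelled libraries, against 46.3, 121, 47.4, 149 and 25.5 CPM in Controls (log2 ratio -2.0). The SULT genes summed to 90.5, 82.1, 72.6, 78 and 50.8 CPM, against 108, 114, 111, 134 and 104 CPM in Controls (log2 ratio -0.61). Every one of the 4 sums was lower in each knockout-labelled library than in each Control on the CPM scale, narrowly so for GST. A single gene carried most of 2 of the sums: Mgst1 held 80.7% of the MGST sum and Sult1a1 82% of the SULT sum, while Gstp1 held 34.3% of the GST sum and Ugt2b5 18.9% of the UGT sum.

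**Figure D2:**
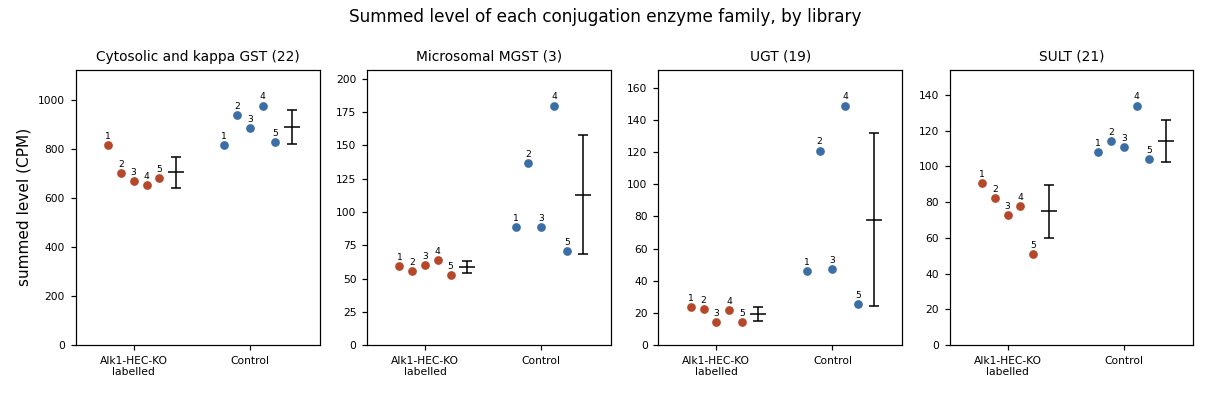
Summed level (CPM) of each family in each library, knockout-labelled libraries left and Controls right. Numbers are replicate numbers, and the bar beside each group is mean ± SD (n = 5). Controls 2 and 4 are the highest Controls for all 4 families, with 121 and 149 CPM of UGT transcripts.

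Compared per length, in the TPM values deposited by the authors, the GST family dominated in these libraries, which also held transcripts of other liver cells. Its sum was 1561 ± 177 TPM in knockout-labelled libraries and 1897 ± 99.2 TPM in Controls (SD, n = 5 each). The next was MGST with 141 ± 11.8 and 269 ± 108 TPM, then SULT with 107 ± 19.6 and 152 ± 6.51 TPM, and UGT was lowest with 15.3 ± 3.83 and 57 ± 36.7 TPM, in the same order of groups. Single genes ranked in the Controls as Gstp1 (921 ± 70.1 TPM), Gstm2 (292 ± 14.3), Gstm1 (270 ± 15.1), Mgst1 (242 ± 107), Sult1a1 (135 ± 6.91) and Gstk1 (126 ± 16.5; SD, n = 5 each). The intervals of Gstm2, Gstm1 and Mgst1 overlap, as do those of Sult1a1 and Gstk1. In the knockout-labelled libraries Mgst1 stood at 108 ± 13.2 TPM, close to Gstk1 at 104 ± 7.52 TPM.

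The mu class lies in 1 cluster on chromosome 3, and 4 of its 7 genes fell. Gstm2 (ENSMUSG00000040562.12, chromosome 3 from 107981702 to 107986453, minus strand, GRCm38) was at 113, 131, 130, 135 and 141 CPM in knockout-labelled libraries 1 to 5, against 158, 155, 172, 180 and 172 CPM in Controls 1 to 5. The groups did not overlap, and Gstm2 had the smallest p of all members (log2 fold change -0.37 ± 0.07 SE, edgeR adjusted p = 0.0018). Its neighbour Gstm1 was at 165, 149, 139, 133 and 148 CPM, against 171, 177, 175, 201 and 166 CPM in Controls. The 2 groups of Gstm1 values were separated by 1 CPM, between knockout-labelled library 1 and Control 5 (log2 fold change -0.28 ± 0.07 SE, edgeR adjusted p = 0.013). Gstm5 was at 5.26 ± 0.496 CPM in knockout-labelled libraries and 6.9 ± 0.878 CPM in Controls (SD, n = 5 each; edgeR adjusted p = 0.033). That call of Gstm5 ended without any of knockout-labelled libraries 1 to 4 or Controls 1, 2 and 5 (adjusted p from 0.051 to 0.08). Gstm3 had the largest fall of the class, with 0.252, 0.657, 0.38, 0.252 and 0.418 CPM in knockout-labelled libraries against 0.882, 1.84, 1.7, 4.99 and 0.64 CPM in Controls. Of the 31-base windows of Gstm3, Gstm1 and Gstm2, 37.7%, 28.8% and 12.2% also occur in another gene, so part of their reads may be divided among genes. Control 4 alone held 4.99 CPM of Gstm3, and the log2 fold change of Gstm3, -2.34 ± 0.56, became -1.68 without that library. Gstm3 passed the count filter mainly through the Controls, and without that filter it was not called (edgeR adjusted p = 0.051).

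The other mu genes did not pass, and Gstm7 pointed the other way. Gstm6 averaged 1.37 ± 0.45 CPM in knockout-labelled libraries and 2.83 ± 1.89 CPM in Controls (SD, n = 5 each; log2 fold change -1.04 ± 0.4 SE, edgeR adjusted p = 0.095). DESeq2 called Gstm6 lower (adjusted p = 0.047), as did edgeR without Control 1 (0.045). Gstm7 was at 3.61, 3.08, 3.97, 3.28 and 2.97 CPM in knockout-labelled libraries, against 2.02, 2.7, 2.66, 3.19 and 2.6 CPM in Controls. Its values overlapped only through Control 4 (log2 fold change 0.36 ± 0.15 SE, edgeR adjusted p = 0.12), and limma on log2(TPM + 1) called it (adjusted p = 0.049). Gstm4 was at 4.07 ± 0.635 and 4.57 ± 1.17 CPM in the same order (adjusted p = 0.59).

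Gstp1, a pi-class enzyme and the most abundant member, was below every Control in 4 of the 5 knockout-labelled libraries. Gstp1 (ENSMUSG00000060803.6, chromosome 19 from 4035407 to 4037985, minus strand) was at 322, 226, 213, 203 and 211 CPM in knockout-labelled libraries 1 to 5, against 287, 346, 325, 317 and 284 CPM in Controls 1 to 5. Knockout-labelled library 1 stood inside the Control range and the other 4 below it. The log2 fold change was -0.41 ± 0.12 (SE, edgeR adjusted p = 0.036), and -0.55 without library 1 (adjusted p = 2.0e-04). The call ended without any of knockout-labelled libraries 2 to 5 or Controls 2, 3 and 4 (adjusted p from 0.068 to 0.08). In the annotated transcripts 38.5% of the windows of 31 bases in Gstp1 also occur in another member, so reads could be shared with Gstp2, which was at 4.33 ± 0.5 CPM in knockout-labelled libraries and 4.65 ± 1.99 CPM in Controls (SD, n = 5 each; edgeR adjusted p = 0.82).

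Among the remaining GST classes the kappa and theta genes fell by small amounts. Gstk1, the mitochondrial and peroxisomal kappa enzyme, was at 42.5, 46.4, 51.2, 50.8 and 48 CPM in knockout-labelled libraries, against 49.4, 69.4, 55.7, 72.2 and 63.4 CPM in Controls (log2 fold change -0.38 ± 0.1 SE, edgeR adjusted p = 0.018). Only Control 1 lay within the knockout-labelled range. Gstt2 was at 14, 12.7, 14.5, 14 and 13.5 CPM, against 18.2, 17.9, 15.7, 16.5 and 16.1 CPM in Controls, without overlap (log2 fold change -0.29 ± 0.07 SE, edgeR adjusted p = 0.0088). Gstt3 was at 4.01 ± 0.827 CPM in knockout-labelled libraries and 5.65 ± 0.637 CPM in Controls (SD, n = 5 each; edgeR adjusted p = 0.037), and removing any of knockout-labelled libraries 1 to 3 or Controls 2 to 5 ended its call (0.053 to 0.097). Gstt1 was at 7.94 ± 1 CPM in knockout-labelled libraries and 8.76 ± 3.33 CPM in Controls (SD, n = 5 each; edgeR adjusted p = 0.73). Gsto1, the omega enzyme that reduces dehydroascorbate, was nearly level at 45.5 ± 2.38 and 48.9 ± 2.07 CPM in the same order (edgeR adjusted p = 0.19). On the TPM scale Gstk1, Gstt2 and Gstm1 were not called (limma on log2(TPM + 1), adjusted p = 0.066, 0.26 and 0.077). With Controls 4 and 5 both left out, Gstk1, Gstp1 and Gstt3 were not called (edgeR adjusted p = 0.11, 0.087 and 0.15).

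The alpha and zeta classes did not pass, and here the libraries varied as much within a group as between groups. Gsta3, which in mouse conjugates the aflatoxin epoxide, was at 46.9, 35.1, 21.9, 16.5 and 19 CPM in knockout-labelled libraries, against 27.4, 43.3, 27.5, 51.1 and 23.1 CPM in Controls (log2 fold change -0.31 ± 0.34 SE, edgeR adjusted p = 0.60). Knockout-labelled libraries 1 and 2 and Controls 2 and 4 were the high ones. Gstz1, maleylacetoacetate isomerase of tyrosine breakdown, followed the same order of libraries with 28.5, 23, 19, 17.3 and 18.9 CPM, against 23.2, 27.3, 24.4, 33 and 20.9 CPM in Controls (edgeR adjusted p = 0.25). Gsta2 and Gsta4 were at 0.695 ± 0.22 and 2.06 ± 0.543 CPM in knockout-labelled libraries, against 0.668 ± 0.187 and 2.4 ± 0.895 CPM in Controls (SD, n = 5 each; edgeR adjusted p = 0.92 and 0.62), and 60.7% of the 31-base windows of Gsta2 occur in another gene. Gsta1, Gsto2 and Gstt4 were not tested, with at most 16 counts in any library, and 92.9% of the 31-base windows of Gsta1 occur in another gene.

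**Figure D3:**
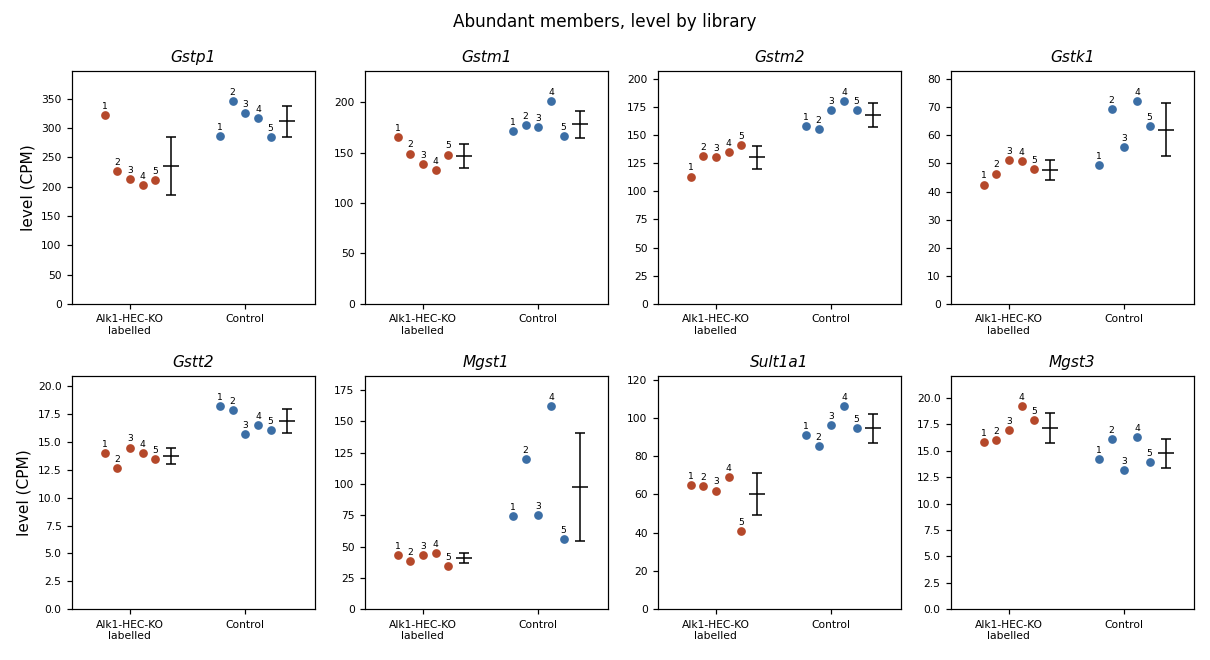
Level (CPM) in each library of 8 members, knockout-labelled libraries left and Controls right, with mean ± SD (n = 5) beside each group. They are not the 8 most abundant. Gsto1, Gsta3 and Gstz1, not called, are left out at 48.9, 34.5 and 25.8 CPM in Controls. Gstt2 and Mgst3 are shown at 16.9 and 14.7 CPM. Gstm1, Gstm2, Gstt2, Mgst1 and Sult1a1 show no overlap between groups, Gstp1 overlaps through knockout-labelled library 1 at 322 CPM, and Mgst3 lies the other way.

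Of the microsomal enzymes Mgst1 fell and Mgst3 did not. Mgst1 (ENSMUSG00000008540.11, chromosome 6 from 138140316 to 138156755, plus strand) is a membrane-bound transferase that also reduces lipid hydroperoxides. It was at 43.2, 38.7, 43.1, 44.6 and 34.3 CPM in knockout-labelled libraries 1 to 5, against 74, 120, 75, 162 and 56 CPM in Controls 1 to 5. The knockout-labelled values lay close together and below every Control, and Controls 2 and 4 were the highest (2.39-fold lower, log2 fold change -1.26 ± 0.28 SE, edgeR adjusted p = 0.013). None of the 31-base windows of Mgst1 occurs in another annotated gene. Mgst3, which can make leukotriene C4, was at 15.8, 16, 17, 19.2 and 17.9 CPM in knockout-labelled libraries, against 14.2, 16.1, 13.2, 16.3 and 13.9 CPM in Controls (log2 fold change 0.22 ± 0.08 SE, edgeR adjusted p = 0.079). Mgst3 was called higher when libraries were scaled by total count alone (adjusted p = 0.031) and by limma on log2(TPM + 1) (0.022). Mgst2 was at 0.509 ± 0.152 and 0.711 ± 0.27 CPM in the same order (SD, n = 5 each; edgeR adjusted p = 0.33).

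The UGT genes had the largest falls. Ugt2b1 (ENSMUSG00000035836.2, chromosome 5 from 86916638 to 86926530, minus strand) belongs to the cluster that encodes steroid and bile acid glucuronosyltransferases. It was at 1.93, 2.87, 1.01, 3.02 and 1.21 CPM in knockout-labelled libraries 1 to 5, against 7.35, 25.3, 7.49, 31.3 and 3.8 CPM in Controls 1 to 5 (7.46-fold lower, log2 fold change -2.90 ± 0.66 SE, edgeR adjusted p = 0.015). Ugt2b5, in the same cluster, was at 3.14, 3.65, 2.96, 3.49 and 1.25 CPM, against 10, 25.2, 9.23, 28.1 and 4.56 CPM in Controls (5.31-fold lower, log2 fold change -2.41 ± 0.54 SE, edgeR adjusted p = 0.013). Neither gene overlapped between groups, Controls 2 and 4 were well above the other Controls, and Control 5 was the lowest of them. Of the 31-base windows of Ugt2b5 56.4% occur in another gene, so its reads are uncertain, against 0.826% of those of Ugt2b1 and at most 12% for the other tested genes of the cluster.

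All 5 tested Ugt2b genes fell. Ugt2b35 was at 0.877 ± 0.169 CPM in knockout-labelled libraries and 4.23 ± 3.06 CPM in Controls (SD, n = 5 each; edgeR adjusted p = 0.0084), without overlap. Ugt2b34 was at 3.03 ± 0.645 and 10.2 ± 6.58 CPM in the same order (edgeR adjusted p = 0.019), and leaving out knockout-labelled library 5 brought p to 0.05, which ended the call. Ugt2b36 was at 2.57 ± 1.27 and 10.4 ± 7.78 CPM (edgeR adjusted p = 0.038), and removing any of knockout-labelled libraries 2 to 5 or Controls 2 and 4 ended the call (0.068 to 0.085). Ugt2b37 and Ugt2b38 were not tested, with at most 11 counts in any library. The neighbouring Ugt2a3 was at 1.3, 1.35, 1.06, 1.05 and 0.627 CPM in knockout-labelled libraries, against 2.31, 6.39, 2.7, 6.92 and 1.54 CPM in Controls, without overlap (3.67-fold lower, edgeR adjusted p = 0.0097). Ugt2a1 and Ugt2a2, known from olfactory epithelium, were at 0 in every library. Of their 31-base windows 97.8% and 93.6% occur in another gene, so their absence is uncertain.

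The Ugt1a genes share their last exons on chromosome 1, so 53% to 84.2% of the 31-base windows of each occur in another gene and the division of reads among them is uncertain. Ugt1a1 (ENSMUSG00000089960.1, chromosome 1 from 88211959 to 88218997, plus strand), which conjugates bilirubin, was at 3.48, 1.72, 1.27, 1.6 and 0.71 CPM in knockout-labelled libraries, against 5.54, 14.6, 7.71, 19.1 and 2.81 CPM in Controls. Only knockout-labelled library 1 and Control 5 crossed (5.65-fold lower, log2 fold change -2.50 ± 0.58 SE, edgeR adjusted p = 0.015). Ugt1a6b was at 0.51 ± 0.176 CPM in knockout-labelled libraries and 2.16 ± 1.51 CPM in Controls (SD, n = 5 each; edgeR adjusted p = 0.013), and Ugt1a6a at 1.72 ± 0.926 and 3 ± 1.76 CPM (adjusted p = 0.25). Ugt1a7c was at 2.08 ± 0.917 and 1.84 ± 0.476 CPM (adjusted p = 0.73), the only tested UGT gene with a positive log2 fold change. The division of reads among the 9 Ugt1a genes has no bearing on their sum, though reads shared with genes outside the members do. Of the windows of Ugt1a1 81.3% occur in another gene and 58.5% in another member. The sum was 8.85, 7.22, 4.65, 7.06 and 6.6 CPM in knockout-labelled libraries, against 10.9, 27, 13.2, 32.3 and 7.42 CPM in Controls. The only crossing was between knockout-labelled library 1 and Control 5.

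**Figure D4:**
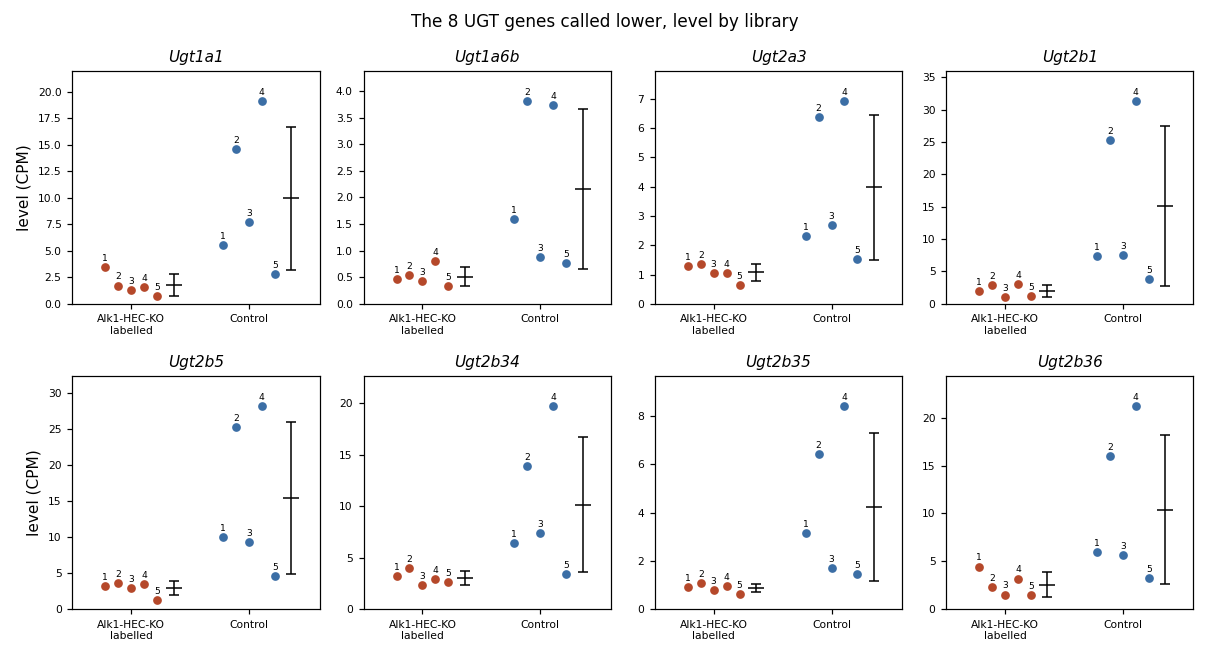
Level (CPM) in each library of the 8 UGT genes that fell, knockout-labelled libraries left and Controls right, with mean ± SD (n = 5) beside each group. In all 8 panels Controls 2 and 4 are the highest libraries and Control 5 is the lowest Control.

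Of the sulfotransferases only Sult1a1 fell, and most others were barely detected. Sult1a1 (ENSMUSG00000030711.16, chromosome 7 from 126672865 to 126676432, minus strand), a phenol sulfotransferase, was at 64.8, 64.3, 62, 69.1 and 41 CPM in knockout-labelled libraries 1 to 5, against 90.8, 85.4, 96.4, 106 and 94.5 CPM in Controls 1 to 5. The groups did not overlap, the Controls lay close together, and knockout-labelled library 5 was the lowest (1.57-fold lower, log2 fold change -0.65 ± 0.12 SE, edgeR adjusted p = 0.0033). Sult2a8, a bile acid sulfotransferase of mouse liver, was at 21.1, 14, 7.94, 6.17 and 6.89 CPM, against 14.4, 23.6, 10.1, 22.6 and 6.78 CPM in Controls (edgeR adjusted p = 0.54). Sult1b1, which acts on thyroid hormones, was at 0.36 ± 0.239 CPM in knockout-labelled libraries and 0.697 ± 0.399 CPM in Controls (SD, n = 5 each; edgeR adjusted p = 0.21). Sult1d1 and Sult6b1 had adjusted p of 0.49 and 0.70 in the same test. Of the 16 untested SULT genes 7 had no count in any library, and the others, among them the oestrogen sulfotransferase Sult1e1 with 1 count in all, had at most 26 counts in any library.

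Promoter sequences (RefSeq, GRCm38.p6, 250 bases before to 50 after each start) were found for 58 of the 65 members and read for short motifs on both strands. TGACNNNGC, the core recognised by NRF2, was present for 4 of 58 members, which is 6.9%, and for 14% of all 27025 genes with a promoter in the table. The 4 were Mgst1 and Gstm5, which fell, and Gsta3 and Gstm7, which did not pass. GCGTG, the core recognised by the dioxin receptor AHR, was present for 20.7% of members and 35.2% of all genes. A core of the site of the hepatocyte factor HNF1 was present for 8 of 58 members, or 13.8%, and for 0.47% of all genes. Of those 8 members 4 were Sult2a genes at 0 counts, 2 were Ugt1a9 and Ugt1a10, 1 was Sult1d1 and 1 was Ugt1a1, the only one of them that fell. Paralogues can share promoter sequence, so these matches are not independent of one another. Mgst1, Gstm5 and Ugt1a1 are printed as members that fell with a match, and Gsta3 as one that did not pass; capitals mark the match, which starts 56, 42, 45 and 121 bases before the start of Mgst1, Gstm5, Ugt1a1 and Gsta3.
Mgst1, chr6:138140277-138140576, plus strand, TGACNNNGC read on the opposite strand: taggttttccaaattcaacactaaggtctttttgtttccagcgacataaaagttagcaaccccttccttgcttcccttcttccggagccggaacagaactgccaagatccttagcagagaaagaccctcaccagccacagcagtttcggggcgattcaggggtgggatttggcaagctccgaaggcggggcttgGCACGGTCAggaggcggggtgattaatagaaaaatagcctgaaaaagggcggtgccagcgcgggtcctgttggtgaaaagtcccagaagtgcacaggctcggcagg
Gstm5, chr3:107895604-107895903, plus strand: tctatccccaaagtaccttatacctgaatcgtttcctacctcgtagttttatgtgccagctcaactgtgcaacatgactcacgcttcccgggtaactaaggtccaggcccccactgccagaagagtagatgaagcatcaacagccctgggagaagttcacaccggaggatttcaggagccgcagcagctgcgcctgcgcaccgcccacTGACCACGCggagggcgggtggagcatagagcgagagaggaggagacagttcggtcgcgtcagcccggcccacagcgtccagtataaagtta
Ugt1a1, chr1:88211709-88212008, plus strand, HNF1 core read on the opposite strand: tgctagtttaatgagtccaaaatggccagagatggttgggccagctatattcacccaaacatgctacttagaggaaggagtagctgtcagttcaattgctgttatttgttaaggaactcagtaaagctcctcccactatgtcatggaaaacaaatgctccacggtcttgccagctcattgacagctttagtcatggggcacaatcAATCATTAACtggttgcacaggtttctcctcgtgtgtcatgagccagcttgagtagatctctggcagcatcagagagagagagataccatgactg
Gsta3, chr1:21240335-21240634, plus strand: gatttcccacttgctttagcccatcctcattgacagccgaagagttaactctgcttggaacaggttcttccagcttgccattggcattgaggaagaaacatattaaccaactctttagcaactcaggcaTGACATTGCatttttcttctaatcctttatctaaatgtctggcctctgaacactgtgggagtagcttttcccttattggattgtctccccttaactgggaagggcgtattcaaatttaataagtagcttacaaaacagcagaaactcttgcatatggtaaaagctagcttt

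Secreted protein transcripts of hepatocytes, a main site of many of these enzymes, were highest in Controls 2 and 4, as were the UGT sum and Mgst1. Across Controls Gstm2, Gstp1 and Sult1a1 varied less, from 155 to 180, 284 to 346 and 85.4 to 106 CPM. In bulk RNA fewer cells of a type and less RNA per cell cannot be told apart. The 16 hepatocyte genes for secreted proteins summed to 1204, 1519, 805, 981 and 680 CPM in knockout-labelled libraries 1 to 5, against 1054, 2527, 1258, 2401 and 716 CPM in Controls 1 to 5. The sums overlapped, Controls 2 and 4 again stood highest, and 4 of the 16 genes fell (median log2 fold change -1.26). Alb was at 446 ± 165 CPM in knockout-labelled libraries and 470 ± 194 CPM in Controls (SD, n = 5 each; edgeR adjusted p = 0.91). Of the 10 hepatocyte genes of the central zone 7 fell and 1 rose, Glul (median log2 fold change -3.05). Among all tested genes 9.08% were called lower and 10.6% higher. Lect2, which fell, was at 0.134 ± 0.0359 CPM in knockout-labelled libraries and 3.37 ± 3.14 CPM in Controls (SD, n = 5 each). It thus entered the test through the Controls. Of the 10 hepatocyte genes of the portal zone edgeR called 0 and DESeq2 1, with 2 higher at an unadjusted p under 0.05 (median 0.69). Glul held much of the central zone sum, at 712 ± 82.3 CPM in knockout-labelled libraries and 543 ± 86.1 CPM in Controls (SD, n = 5 each). All 10 central zone genes summed to 717 to 936 CPM in knockout-labelled libraries and 636 to 1289 CPM in Controls, with overlap. Without Glul the central zone genes summed to 123, 119, 107, 107 and 99.5 CPM in knockout-labelled libraries, against 223, 494, 246, 734 and 169 CPM in Controls. No gene of the 3 lists was at 0 over all libraries.

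The UGT sum, like the central zone genes without Glul, was also lower relative to the summed hepatocyte secreted transcripts of the same library. Alb and Trf held much of that sum and hardly moved (log2 fold change -0.08 and -0.05). The 4 genes of the secreted list that fell, Apoa2, Apob, Apoh and Rbp4, had log2 fold changes from -1.81 to -2.14. A lower share of the secreted sum is thus not particular to the UGT genes. The UGT sum was 1.98, 1.48, 1.78, 2.22 and 2.13% of the secreted sum in knockout-labelled libraries, against 4.39, 4.78, 3.77, 6.19 and 3.57% in Controls, without overlap. Knockout-labelled library 2 held 1519 CPM of the secreted transcripts and Control 5 held 716 CPM, while their UGT sums were 22.4 and 25.5 CPM. The central zone genes without Glul were 7.85 to 14.6% of the secreted sum in knockout-labelled libraries and 19.6 to 30.6% in Controls, also without overlap. This holds only for the list without Glul, its 1 gene that rose. With Glul the central zone sums overlapped, at 717 to 936 CPM in knockout-labelled libraries and 636 to 1289 CPM in Controls. The share of the full list was not computed. Mgst1 as a percentage of the same sum was 3.59, 2.55, 5.35, 4.54 and 5.05 in knockout-labelled libraries, against 7.02, 4.76, 5.96, 6.76 and 7.82 in Controls, with overlap through Control 2. With the mean log2 level of the secreted list as a covariate, 6 of the 18 members remained called: Gstm2, Sult1a1, Ugt1a1, Ugt2a3, Ugt2b1 and Ugt2b5. The log2 fold change of Ugt2b1 was then -1.25 ± 0.25 (SE, edgeR adjusted p = 0.0065) and that of Ugt2b5 -1.08 ± 0.22 (0.0069). Those of Ugt1a1 and Ugt2a3 were -1.11 ± 0.24 (adjusted p = 0.01) and -0.73 ± 0.21 (0.039). Gstm2 and Sult1a1 hardly moved, at -0.40 ± 0.08 (0.007) and -0.55 ± 0.14 (0.031), and Mgst1 was at -0.64 ± 0.18 (0.05, not called). The other called UGT genes stood between -0.61 and -1.06 and missed the threshold (adjusted p from 0.054 to 0.16). Gstt2, Gstm5 and Gstt3 also missed it (0.056, 0.085 and 0.18) with log2 fold changes of -0.29, -0.43 and -0.44, against -0.29, -0.39 and -0.49 without the covariate, so a lost call is not in itself a smaller difference. Gstk1, Gstm1, Gstp1 and Gstm3 stood at -0.29, -0.19, -0.26 and -1.11. Gsta3 and Gstz1, not called in either fit, turned to 0.30 and 0.01 (adjusted p = 0.56 and 0.98).

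**Figure D5:**
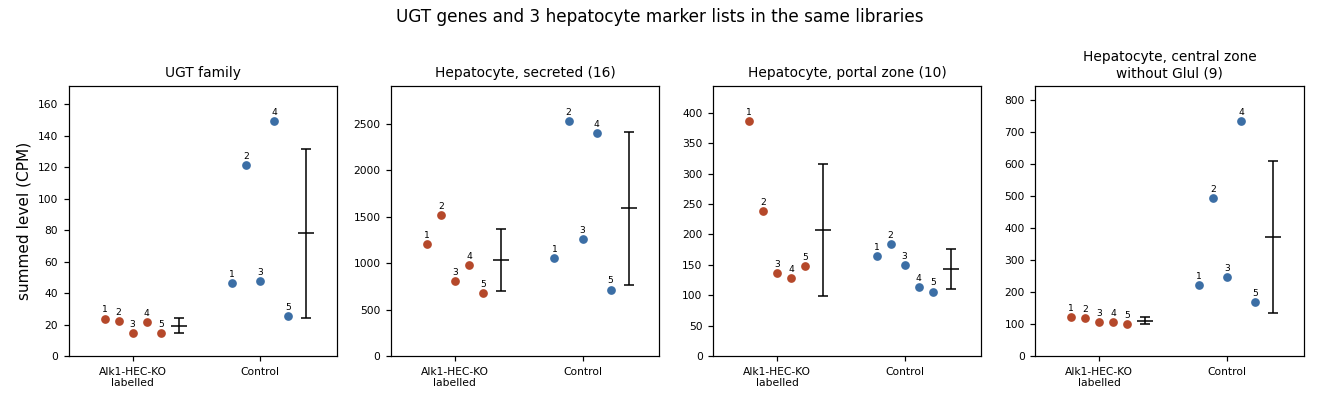
Summed level (CPM) in each library of the UGT family and of 3 hepatocyte marker lists, knockout-labelled libraries left and Controls right, with mean ± SD (n = 5). The central zone panel leaves out Glul. Controls 2 and 4 are high in the UGT, secreted and central zone panels, and knockout-labelled library 1 is high, at 386 CPM, in the portal zone panel.

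The libraries with high Gsta3, Gstz1 and Sult2a8 in the knockout-labelled group also held more portal zone transcripts, and more secreted hepatocyte transcripts. The 10 portal zone genes summed to 386, 238, 136, 129 and 148 CPM in knockout-labelled libraries 1 to 5, against 164, 184, 149, 114 and 106 CPM in Controls. Among the Controls, Control 2 had the highest portal zone sum, while Control 4, highest in Gsta3 and Gstz1 at 51.1 and 33 CPM, held 114 CPM. The part of portal zone cells in Gsta3, Gstz1 and Sult2a8 was not tested. Counts of called markers here stand beside 10.6% of all tested genes called higher and 9.08% called lower. Bile duct markers were higher, 371 to 628 CPM in knockout-labelled libraries and 187 to 271 CPM in Controls, and 7 of 8 rose. Kupffer cell markers ran from 551 to 1357 CPM in knockout-labelled libraries and from 627 to 1967 CPM in Controls, with 0 of 9 called by edgeR or DESeq2 and 1 higher at an unadjusted p under 0.05. Stellate cell and fibroblast markers summed to 175 to 282 CPM and 138 to 235 CPM in the same order, and 2 of 10 rose. T and NK cell markers summed to 13.6 to 31.8 CPM in knockout-labelled libraries and 15.1 to 21.6 CPM in Controls, and 1 of 6 fell (Cd3d, log2 fold change -1.06 ± 0.28 SE, edgeR adjusted p = 0.02). B cell markers summed to 11.5 to 33.7 CPM and 9.71 to 17 CPM in the same order. The part of these cells in the members' levels was not tested.

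The genes that supply the conjugating groups are read here against the 9.08% of all tested genes called lower and the 10.6% called higher. Of 13 glutathione supply genes 2 fell (median log2 fold change -0.07, against 0.00 over all tested genes). Gclc, the catalytic subunit of the first step of glutathione synthesis, was at 50.1, 45.3, 45.4, 45.5 and 46.5 CPM in knockout-labelled libraries, against 70.1, 66.4, 51.4, 66.2 and 59.8 CPM in Controls, without overlap (log2 fold change -0.43 ± 0.08 SE, edgeR adjusted p = 0.0016). Gpx4, which reduces lipid hydroperoxides with glutathione, fell by 0.26 ± 0.07 on the log2 scale (SE, edgeR adjusted p = 0.014). Of 5 genes of UDP-glucuronate supply and removal edgeR and DESeq2 called 0, with 2 lower and 1 higher at an unadjusted p under 0.05 (median -0.12). Ugdh, which makes UDP-glucuronate, was at 29.9 ± 2.77 CPM in knockout-labelled libraries and 33.2 ± 1.47 CPM in Controls (SD, n = 5 each; edgeR adjusted p = 0.14). Of 8 measured genes of sulfate donor supply and removal 3 fell and 1 rose (median -0.19). Slc35b3, which carries PAPS into the Golgi, fell by 0.41 ± 0.07 on the log2 scale (edgeR adjusted p = 0.0012), and Bpnt1, which clears the spent donor, rose by 0.27 ± 0.07 (0.015). The sulfate carriers Slc26a2 and Slc26a1 fell by 0.20 ± 0.05 and 0.98 ± 0.31 (adjusted p = 0.023 and 0.045). Slc26a2 was not called when knockout-labelled library 4 or Control 5 was left out (0.053 and 0.055), nor was Slc26a1 without any of knockout-labelled libraries 1, 3, 4 and 5 or Controls 2 and 4 (from 0.07 to 0.12).

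Of 9 tested genes of other conjugation and detoxification enzymes only Ephx1 was called. Ephx1, microsomal epoxide hydrolase, was at 122, 139, 117, 140 and 123 CPM in knockout-labelled libraries, against 77.6, 87.2, 78.4, 87.1 and 80.9 CPM in Controls, without overlap, and rose (log2 fold change 0.64 ± 0.06 SE, edgeR adjusted p = 1.8e-05). Of 8 exporters of conjugates and drugs 2 rose and 2 fell (median 0.05). Abcg2 rose by 0.57 ± 0.09 on the log2 scale (SE, edgeR adjusted p = 0.0011) and Abcc1, a glutathione conjugate pump, by 0.33 ± 0.07 (0.008). Abcc2 and Abcc6, pumps known from hepatocytes, fell by 2.15 ± 0.55 and 2.09 ± 0.47 (edgeR adjusted p = 0.02 and 0.0084). Abcc2 was at 0.886 ± 0.259 CPM in knockout-labelled libraries and 3.95 ± 3.1 CPM in Controls (SD, n = 5 each). Abcc6 was at 0.351 ± 0.153 and 1.51 ± 0.966 CPM in the same order, so it entered the test mainly through the Controls. With limma on log2(TPM + 1) neither Abcc2 nor Abcc6 was called (adjusted p = 0.078 and 0.053). Leaving out knockout-labelled library 2 or 5 brought Abcc2 to an adjusted p of 0.05.

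NRF2 and AHR are textbook regulators of these enzymes. Of 14 NRF2 pathway genes 4 fell (median -0.12), and Nfe2l2, which encodes NRF2, was at 274 and 306 CPM in knockout-labelled and Control libraries (edgeR adjusted p = 0.11). Nqo1, a quinone reductase, was at 7.8, 7.96, 9.17, 8.95 and 11.7 CPM in knockout-labelled libraries, against 27.9, 23.6, 17.8, 21.7 and 18.7 CPM in Controls, without overlap (2.4-fold lower, edgeR adjusted p = 5.5e-05). Txnrd1, thioredoxin reductase, fell by 0.42 ± 0.09 on the log2 scale (adjusted p = 0.0049). Osgin1 and Tkt fell by 0.53 ± 0.16 and 0.16 ± 0.05 (adjusted p = 0.04 and 0.047). The call of Osgin1 ended without any library but knockout-labelled 1 and Control 3 (adjusted p from 0.061 to 0.082), and that of Tkt without any but knockout-labelled 4 and Control 1 (from 0.058 to 0.092). Of 12 tested genes of the AHR and nuclear receptor list 5 fell (median -0.13). Ahr, which encodes the dioxin receptor, was at 55.7, 57.6, 72.3, 46.1 and 54.5 CPM in knockout-labelled libraries, against 117, 116, 78.1, 102 and 105 CPM in Controls, without overlap (log2 fold change -0.85 ± 0.13 SE, edgeR adjusted p = 9.8e-04). Its target Cyp1b1 was at 6.08 ± 1.85 CPM in knockout-labelled libraries and 45.7 ± 7.95 CPM in Controls (SD, n = 5 each; edgeR adjusted p = 3.5e-06), while Cyp1a1, another target, was at 21.2 and 18.5 CPM (0.61). Esr1 fell by 0.53 ± 0.1 on the log2 scale (adjusted p = 0.0023), and Tiparp by 0.28 ± 0.08 (0.034), a call that ended without any of knockout-labelled libraries 2, 4 and 5 or Controls 1, 2 and 5 (adjusted p from 0.058 to 0.084). With the hepatocyte covariate Nqo1, Ahr, Cyp1b1, Esr1, Gclc, Ephx1, Abcg2, Slc35b3 and Slc26a2 remained called, and 10 others did not. Of these, Osgin1, Tkt, Tiparp and Bpnt1 had log2 fold changes of -0.49, -0.15, -0.26 and 0.24, close to those without the covariate. Gpx4, Txnrd1 and Abcc1 stood at -0.21, -0.32 and 0.24. The values of Slc26a1, Abcc2 and Abcc6 were less than 0.5 of those without the covariate, at -0.24, -0.72 and -0.92.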

How the data were processed

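RNA of mouse liver endothelial cells was sequenced with BGISeq-500 protocols, per the labels' protocols. The submitters' processing notes name Trim Galore 0.6.4, the GRCm38.p6 build and kallisto 0.4.6, which estimates transcript abundance. The authors deposited expected counts (estimated counts per gene, not whole) and TPM per gene for each library; the step from transcripts to genes is not given in the sources used here.

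Of 55385 identifiers 55144 matched a symbol in GENCODE M21, whose GRCm38 coordinates are given. The members and lists were chosen with earlier results of these data known. Counts were rounded and tested with edgeR 4.0.16 (R 4.3.3): filterByExpr with a minimum count of 10, TMM factors from 0.94 to 1.04, robust quasi-likelihood test on genotype alone, Benjamini-Hochberg adjustment over 15043 genes, threshold 0.05. CPM used the same scaling, over all counts. The procedure was tested on simulated data. Depth was nearly equal, so counting error is small except at a few counts. No replicate pair agreed within sampling noise (chi-square per degree of freedom 11.58 to 33.02). Kallisto divides reads between similar transcripts, and the share of 31-base windows found in other genes is given for several described members, not for all that it touches.

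Named members were those called, the most abundant of each class and the 5 uncalled with the smallest p, and in each pathway list up to 4 called genes; others named were chosen after their values were seen. Alternatives were DESeq2 1.42.0, limma 3.58.1 (voom, and log2 TPM with pseudocounts of 1 and 0.1), other scalings and filters, a replicate block, a hepatocyte covariate, and libraries left out.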

Additional observations from a re-analysis of the deposited data

Results flagged for a closer look

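In 7 of 98 groups of 5 values, 1 library stood apart from the other 4 by Dixon's test, which chance gives in about 1 in 20 groups. Gstp1 was at 322 CPM in knockout-labelled library 1, with the next at 226 CPM. Sult1a1 and Ugt2b5 were at 41 and 1.25 CPM in knockout-labelled library 5, the next at 62 and 2.96 CPM. Gstm3 was at 4.99 CPM in Control 4, with the next at 1.84 CPM. Cyp1b1 and Gclc were at 9.35 and 50.1 CPM in knockout-labelled library 1, with the next at 5.7 and 46.5 CPM. Abcc1 was at 25.7 CPM in Control 4, with the next at 30.6 CPM.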

How the results depend on the processing

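The count of 18 members lower was 14 to 18 with each library left out in turn, 15 without Controls 4 and 5, 19 with DESeq2 and 6 with the hepatocyte covariate, where 5.31% of all genes were called lower. No member was higher in edgeR's fit; 1 was with library size alone, 2 with limma on log2(TPM + 1) and 1 with limma on log2(TPM + 0.1). Of all calls 53.8% were higher, and 65.7%, 73.3% and 73% under these 3 scalings, which called 15, 12 and 13 members lower. The median log2 fold change over all tested genes was 0 in the main fit and 0.048, 0.081 and 0.098 under them. Calls gained or lost there thus include this shift of all genes, whose cause was not tested. The family ratios kept their sign in the 14 alternatives computed for sums (other scalings, TPM and left-out libraries; UGT -2.23 to -1.63). Gsta3 and Gstz1 reversed to 0.30 and 0.01 with the hepatocyte covariate. Of the 18 members 13 stayed called with every single library left out, and Gstm2, Sult1a1, Ugt1a1, Ugt2a3, Ugt2b1 and Ugt2b5 in every alternative that tested them. Replicate numbers showed no clear pairing of the libraries (correlations of same-numbered deviations from -0.196 to 0.35), and 3 of 10 libraries correlated best with their own number. Pairing was not excluded, and the replicate block called 16 members lower. Folds of genes under 1 CPM rest on few counts, and limma on log2(TPM + 1) gave smaller ones, from -0.78 to -1.86 for the 8 UGT genes.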
